A study of Mus musculus with 8 samples.

Results

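The fibroblast growth factor (FGF) system was examined in primary mouse embryonic palate cells, as 46 genes on 74 probes of an Illumina bead array that measured 17711 named genes. The genes were chosen by symbol alone and fall into 7 roles. They comprise 22 Fgf genes, called ligands here, 5 receptors (Fgfr1 to Fgfr4 and Fgfrl1), 4 secreted binding proteins or klotho coreceptors (Fgfbp1, Fgfbp3, Kl and Klb), 1 docking adaptor (Frs3), 4 membrane modulators (Flrt1, Flrt2, Flrt3 and Il17rd), 6 glypicans (Gpc) and 4 syndecans (Sdc). The ligand role followed the symbol, so it includes intracellular factors such as Fgf13.

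The cells, abbreviated MEP, came from palatal shelves of E13.5 embryos of strain CBA;C57BL6 N2, and were grown in serum-containing medium to passage 1. On 4 arrays the cells had been induced for 60 min with 2 ug/ml of a pre-clustered ephrin-B1-Fc protein. On the other 4 arrays they had received a control induction, and whether this held the clustering reagent is not given in the sources used here. Ephrin-B1 is a ligand of Eph receptor tyrosine kinases, and the comparison asks which transcripts respond within this time to signaling through those receptors. Both groups shared every slide, with the replicate 1 arrays on slide 1, the replicate 2 arrays on slide 2 and the remaining 4 arrays on slide 3. Arrays were compared mainly in pairs of the same replicate number. Each p-value combines the spread of its gene's pair differences with a variance estimated over all genes, so it does not measure that spread alone. Separate cultures or embryos are not named for the replicates, so the spread between pairs may be technical.

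FGF ligands bind receptor tyrosine kinases together with heparan sulfate, a sulfated sugar chain carried by glypicans and syndecans on the cell surface. The activated receptor phosphorylates FRS docking adaptors, which recruit the Ras and ERK cascade, and ERK activity switches on inhibitors such as Sprouty proteins and Dusp6. In the growing palate, Fgf10 is made by the mesenchyme and acts on Fgfr2 in the overlying epithelium, and mice that lack Fgf10 or the epithelial form of Fgfr2 have a cleft palate.

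Per array, 15303 to 17362 of the 46632 probes had signal above background (detection p under 0.05), and the raw median signal was 69.6 to 75.9. All 11 markers of palatal mesenchyme that were looked up (among them Prrx1, Twist1, Osr2 and Pdgfra) were above background on 8 of 8 arrays. Of 13 epithelial markers with a probe 5 were measured. Epcam, Krt5, Krt15, Trp63, Esrp1 and Grhl2 were above background on none. Krt8, Krt18 and Krt17 were above it on 8 arrays, Krt14 and Esrp2 on 6, Cldn4 on 3 and Cdh1 on 1. Of 8 endothelial markers 3 were measured. Pecam1, Cdh5, Tek and Tie1 were above background on none. Kdr was above it on 8 arrays, Emcn and Esam on 5 and Cldn5 on 1. Of 9 macrophage markers 8 were measured: C1qb and C1qc were above background on 8 arrays, C1qa, Fcgr3 and Cd52 on 7, Adgre1 on 6, Lyz2 on 5 and Tyrobp on 4, and Ptprc on none. Of 8 skeletal muscle markers 4 were measured: Actc1, Acta1, Tnnt1 and Tnnt3 were above background on 8 arrays. Myog was above it on 1, and Myod1, Myf5 and Des on none. Of 4 glial markers Sox10 alone was measured. The summed linear level of the measured markers was 530.3 to 728.8 in uninduced and 523.2 to 860 in induced cells for epithelium, 127.5 to 166.1 and 148.7 to 182.1 for endothelium, 348.7 to 707.5 and 353.1 to 735.2 for macrophages, and 1197 to 3135 and 1278 to 3178 for muscle. The groups overlapped in each of these sums, 0 markers were called, and the part of these cells in the results was not tested.

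Of the 46 FGF system genes, 21 were measured, meaning that the detection p of some probe stayed under 0.05 on 4 or more of the 8 arrays. Over all 17711 genes with a probe this share was 53.1%. A further 4 genes were above background on 1 to 3 arrays and 21 on none, where all genes gave 40.7% on none. On all 8 arrays 18 genes were detected, and all genes gave 47.1%. In a bulk culture, fewer cells of a type and less RNA per cell cannot be told apart, and a probe at background bounds a transcript only as well as that probe hybridizes.

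**Figure D1:**
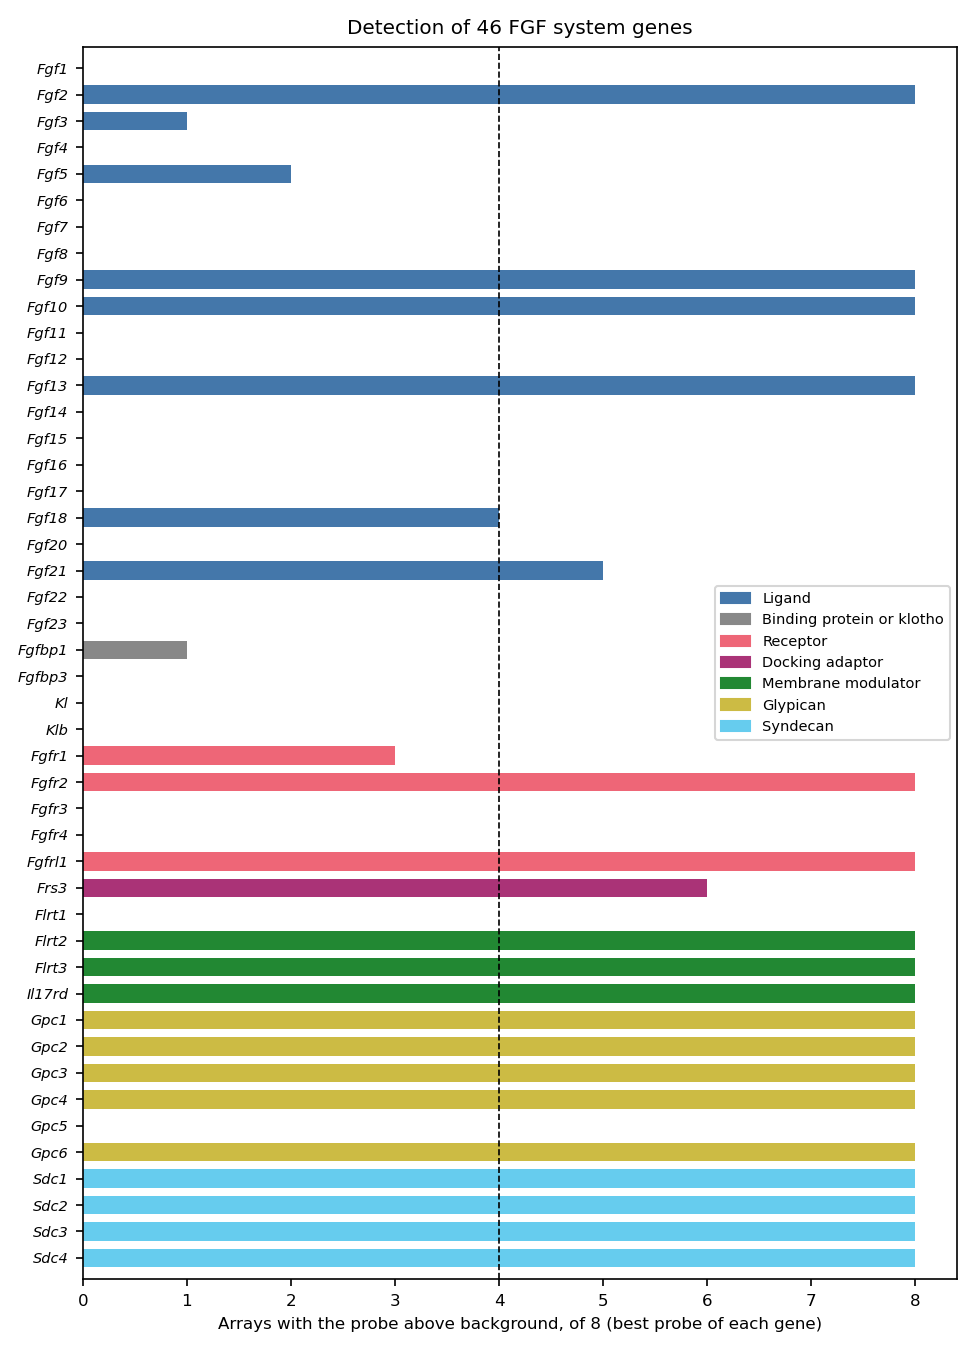
Number of arrays, of 8, on which the best probe of each of the 46 genes was above background, coloured by role, where no bar means 0 arrays. The dashed line marks the 4 arrays needed to count as measured, and all 4 syndecans and 5 of 6 glypicans reach 8.

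Surface proteoglycans were detected most completely. All 4 syndecans and 5 of the 6 glypicans were above background on 8 arrays, and Gpc5, with 3 probes, on none. Among the membrane modulators Flrt2, Flrt3 and Il17rd were detected on 8 arrays and Flrt1 on none. Of the 22 ligands 6 were measured, and of the 4 binding proteins and klothos 0. The ligands above background on 8 arrays numbered 4. These were Fgf2, Fgf9, Fgf10 and Fgf13. Fgf13 belongs to the intracellular FGF homologous factors, which are not secreted and bind sodium channels. Fgf21, a hormone-like ligand that needs Klb, was above background on 5 arrays (2 uninduced, 3 induced), and its coreceptor Klb and the related Kl on none. Of the secreted FGF carriers, Fgfbp1 was above background on 1 uninduced array and Fgfbp3 on none. Fgf18, a ligand of skeletal growth, just met the limit with 2 arrays of each group. Fgf5 was above background on 2 induced arrays, Fgf3 on 1 uninduced array, and the other 14 ligands were above background on no array. The single Fgf7 probe, for the other mesenchymal ligand of the epithelial Fgfr2 form, read 49.9, 47.9, 56.2 and 49.3 raw units in uninduced and 54.3, 55.5, 58.4 and 53.1 in induced cells, below the median signal of every array.

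Of the receptors, Fgfr2 and the kinase-less Fgfrl1 were above background on 8 arrays, and Fgfr3 and Fgfr4 on none. Fgfr1, a receptor commonly expressed in mesenchyme, lay just outside the limit, with 3 arrays, and was left out of the paired fit. The brighter of its 2 probes had a detection p under 0.05 on uninduced replicates 3 and 4 and on induced replicate 4, and its other probe on no array. The brighter probe read 82.4, 79.3, 97.7 and 99.9 raw units in uninduced and 77.8, 71.2, 81.7 and 84.3 in induced cells. Each induced array was below its partner, and the groups overlapped. On the normalized log2 scale this was -0.36, which had an unadjusted p of 0.00221 and an adjusted p of 0.311 by limma when no probe was filtered out. Of the 4 Fgfr2 probes, the brightest was detected on 8 arrays and another on none. The remaining 2 were detected on 5 arrays each and lay near background.

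RefSeq promoter windows (GRCm38.p6, 250 bases before to 50 after the start) were found for 35 of the 46 genes. Where a gene had several windows, the one nearest the annotated gene start was used. Other starts, which these cells may use, are not described. The 18 windows of measured genes held a median of 20.5 CpG dinucleotides and the 17 windows of unmeasured genes 14. At least 10 CpG were present in 14 and 13 of them, which is 77.8% and 76.5%. Over all genes with a probe and a window, the same share was 82.7% in 7637 measured and 39.5% in 6572 unmeasured genes. These shares are descriptions, with no test. The windows of the mesenchymal ligand pair Fgf10 at chr13:118714449-118714748 (plus strand) and Fgf7 at chr2:126034408-126034707 (plus strand), of the receptors Fgfr2 at chr7:130266759-130267058 (minus strand) and Fgfr3 at chr5:33721474-33721773 (plus strand), and of the syndecan Sdc3 at chr4:130792287-130792586 (plus strand) follow, each read along its gene with CpG in capitals. They were picked because Fgf10 and Fgf7 differ in detection at a like CpG number (10 and 11), Fgfr2 was detected with 4 CpG while Fgfr3 was not with 26, and Sdc3, with 44, had the smallest p between groups.
Fgf10: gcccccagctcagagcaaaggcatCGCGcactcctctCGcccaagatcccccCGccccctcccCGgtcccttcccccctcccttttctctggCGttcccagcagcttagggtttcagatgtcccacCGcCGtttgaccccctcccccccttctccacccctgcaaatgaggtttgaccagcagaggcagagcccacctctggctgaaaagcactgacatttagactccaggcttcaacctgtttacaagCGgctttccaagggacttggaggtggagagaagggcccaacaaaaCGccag
Fgf7: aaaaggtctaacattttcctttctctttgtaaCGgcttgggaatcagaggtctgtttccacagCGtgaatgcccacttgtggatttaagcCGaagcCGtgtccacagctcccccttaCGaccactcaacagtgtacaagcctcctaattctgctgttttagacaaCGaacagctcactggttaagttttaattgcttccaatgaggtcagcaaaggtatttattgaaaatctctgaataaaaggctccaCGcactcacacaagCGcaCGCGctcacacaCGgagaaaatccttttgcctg
Fgfr2: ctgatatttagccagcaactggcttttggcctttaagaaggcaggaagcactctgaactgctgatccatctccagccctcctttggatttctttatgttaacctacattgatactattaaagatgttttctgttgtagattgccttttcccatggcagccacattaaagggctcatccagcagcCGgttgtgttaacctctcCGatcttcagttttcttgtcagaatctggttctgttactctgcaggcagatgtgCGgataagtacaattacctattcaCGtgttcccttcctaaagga
Fgfr3: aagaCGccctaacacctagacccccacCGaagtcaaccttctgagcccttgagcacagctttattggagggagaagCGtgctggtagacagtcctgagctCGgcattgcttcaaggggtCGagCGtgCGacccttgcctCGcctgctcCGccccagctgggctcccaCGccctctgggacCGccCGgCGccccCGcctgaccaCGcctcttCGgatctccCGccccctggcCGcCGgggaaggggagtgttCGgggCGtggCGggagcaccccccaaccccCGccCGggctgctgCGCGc
Sdc3: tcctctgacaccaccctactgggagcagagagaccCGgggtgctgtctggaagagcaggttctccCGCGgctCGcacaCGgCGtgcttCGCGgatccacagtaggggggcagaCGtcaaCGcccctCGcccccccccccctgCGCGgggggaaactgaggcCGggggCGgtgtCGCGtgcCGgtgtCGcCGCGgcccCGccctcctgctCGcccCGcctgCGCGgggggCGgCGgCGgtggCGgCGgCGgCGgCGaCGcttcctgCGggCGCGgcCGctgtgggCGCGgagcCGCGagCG
No window of the 35 genes held the cAMP response element TGACGTCA or the AP-1 site TGACTCA, searched on both strands, which 2.51% and 4.47% of all 14209 windows held. The Ets site CCGGAAG was present in 1 window (Fgfrl1), against 12.7% of all. A TATA box, searched as TATAAA, was present in 5 (Fgf5, Fgf21, Fgfbp1, Fgfbp3 and Gpc5), against 12.5% of all. A match or its lack describes only these letters in these windows.

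After 60 min of ephrin-B1, no change of a measured FGF system gene passed the test. Induced and uninduced arrays were compared in pairs of the same replicate number with limma's moderated test, two-sided, and p-values were adjusted over all 9396 genes tested. At an adjusted p under 0.05, 0 of the 21 genes were called, where 54 of all genes (0.575%) were, 7 higher and 47 lower. Before adjustment, 3 of 21 had a p under 0.05 (Sdc3 and Gpc3 lower, Flrt3 higher), where all genes gave 8.73%. Without the pairing 0 of the 21 were called (0.0319% of all genes) and 0 had an unadjusted p under 0.05 (1.27% of all genes). With the slide as a block 0 were called (0.16% of all genes) and 1 had an unadjusted p under 0.05 (4.87% of all genes). Of the 21 genes, 11 had a higher and 10 a lower mean in induced cells. Their median difference was 0.0007, against -0.001 for all genes tested, and they ranged from -0.15 to 0.21. The sign was shared by all 4 pairs in 3 genes, where 15.9% of all genes gave this, and the groups overlapped in all 21, where 1.2% of all genes did not overlap.

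**Figure D2:**
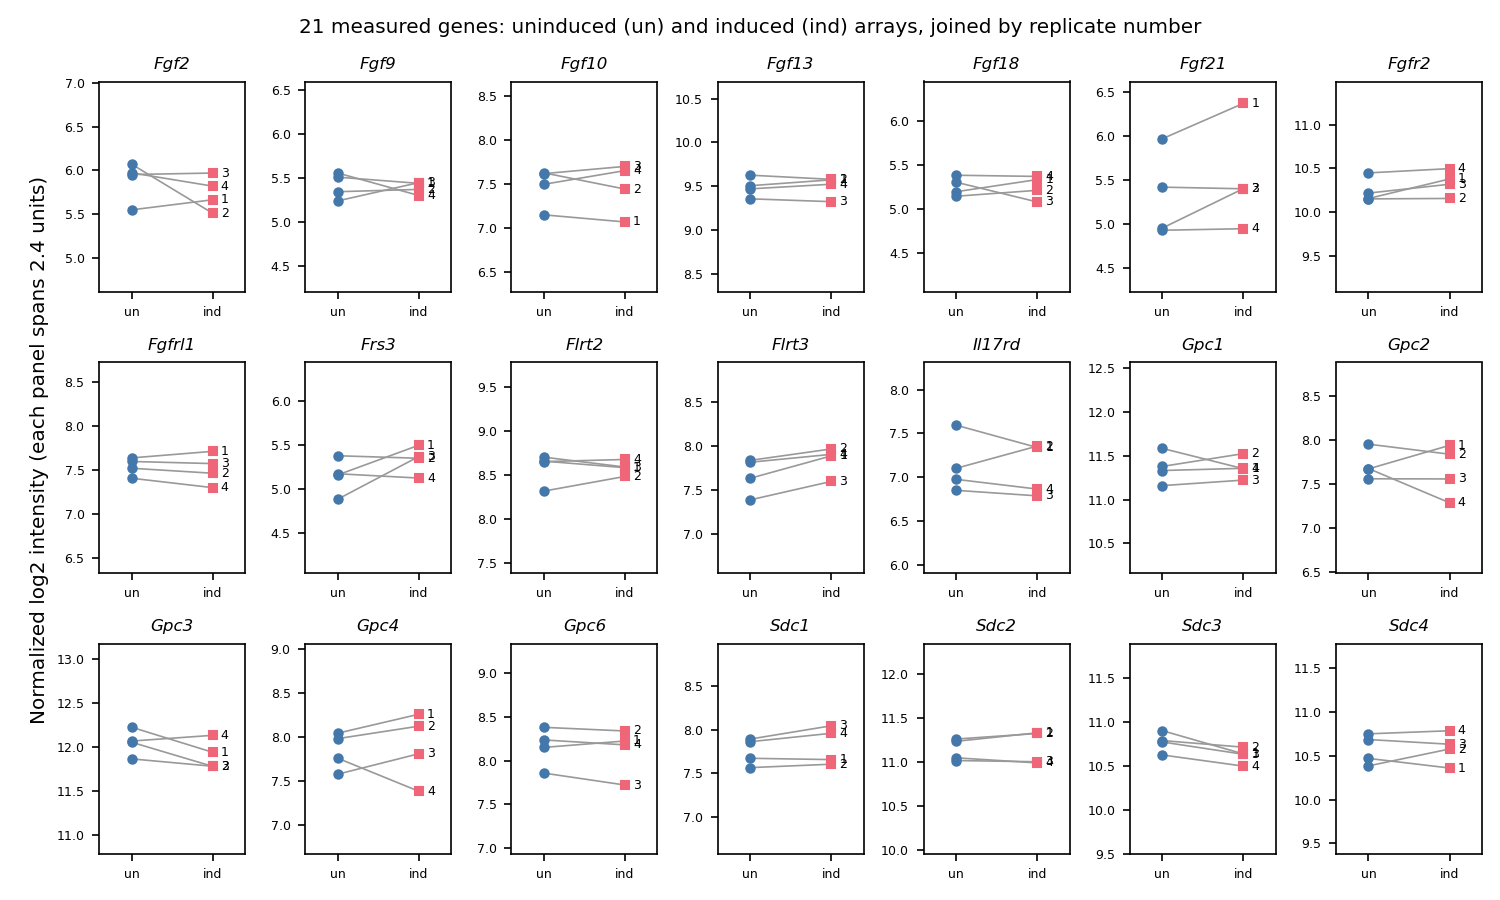
Normalized log2 intensity of the 21 measured genes on each array, uninduced (blue circles) and induced (red squares), joined by replicate number, which is printed beside the induced value. The groups overlap in every panel, and in only 3 panels (Fgfr2, Flrt3 and Sdc3) do all 4 lines run the same way.

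The intervals give the precision of the normalized probe signals in the paired limma fit, whose variance is partly shared over genes. Without the pairing the SE of Fgf21, for example, was 0.30 rather than 0.13, so the bounds hold for the paired fit only. The 95% interval of the difference lay inside a 1.5-fold change in either direction for all 21 genes, which held for 98.7% of all genes tested. It lay inside a 1.3-fold change for 18 of the 21, against 85.2% of all genes. The 3 others were Fgf2, Fgf21 and Frs3. For dim probes such an interval does not bound the change of the transcript, since the difference itself moved with the background correction. Fgf18, Fgf21 and Frs3 were above background on 4, 5 and 6 arrays. A detection p under 0.01 was reached on 0 arrays by Fgf9, Fgf18 and Frs3, and on 1 by Fgf21. The Fgf21 difference, for example, was 0.12 with no background correction, 0.21 with it and 0.29 in the authors' processed matrix.

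**Figure D3:**
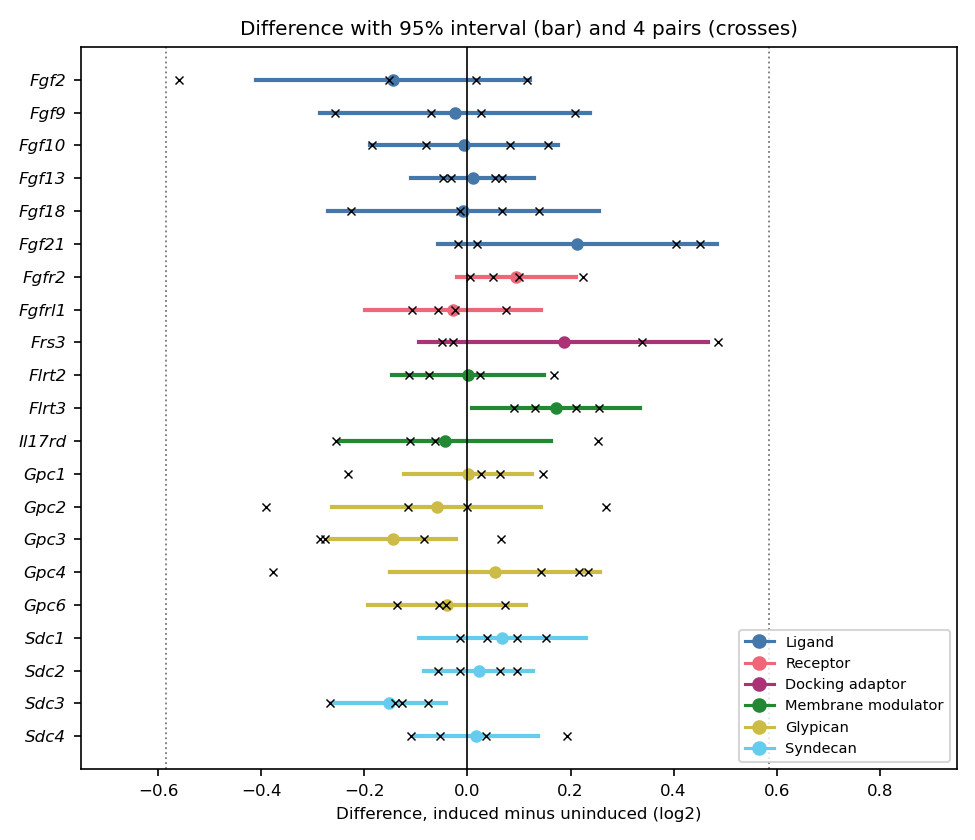
Log2 difference, induced minus uninduced, for each measured gene (point) with its 95% interval from the paired limma fit (bar), coloured by role. Crosses are the 4 pair differences. Dotted lines mark a 1.5-fold change, and every bar lies between them.

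Among the ligands, no difference was distinguishable from 0. Fgf10 had normalized log2 intensities of 7.15, 7.63, 7.62 and 7.50 on uninduced replicates 1 to 4 and 7.07, 7.44, 7.70 and 7.65 on the induced ones. Replicate 1 was the lowest of both groups, pairs 1 and 2 were lower and pairs 3 and 4 higher after induction, and the groups overlapped. The uninduced mean was 7.47 ± 0.22 and the induced mean 7.47 ± 0.29 (SD, n = 4), which differed by -0.0068 (SE 0.087, adjusted p = 0.995 by limma), with an interval of -0.19 to 0.18. Fgf21 gave the highest difference of all 21 genes, 0.21 (SE 0.13, adjusted p = 0.705 by limma). Its arrays read 5.97, 4.95, 5.42 and 4.93 in uninduced and 6.37, 5.40, 5.40 and 4.94 in induced cells. Pairs 1 and 2 carried the difference (0.40 and 0.45), which was 0.13 without replicate 2 and -0.0006 on slide 3 alone. Fgf2, a ligand stored in the matrix that acts on several receptors, averaged 5.89 ± 0.23 without and 5.74 ± 0.20 with induction (SD, n = 4). Its difference of -0.14 (SE 0.13, adjusted p = 0.806 by limma) came mainly from pair 2, at -0.56, and 2 of 4 pairs were lower. It was -0.0065 without replicate 2 and -0.23 without replicate 1. Fgf9, Fgf13 and Fgf18 differed by -0.02, 0.0099 and -0.0081, each lower in 2 of 4 pairs.

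Of the receptors, Fgfr2 was slightly higher in all 4 pairs, without passing the test. Its brightest probe read 10.16, 10.15, 10.22 and 10.45 in uninduced and 10.38, 10.16, 10.32 and 10.50 in induced cells. The difference was 0.09 (SE 0.055, unadjusted p = 0.102, adjusted p = 0.691 by limma), with an interval of -0.02 to 0.21, and it was 0.051 without replicate 1. The 2 Fgfr2 probes near background gave -0.25 and -0.02 (adjusted p over all probes 0.71 and 0.992 by limma), and the mean of the 3 was -0.06. The -0.25 rested on pair 2, at -0.72, where the induced array was not above background, and it was -0.095 without replicate 2 and -0.02 on slide 3 alone. Fgfrl1, a receptor-like protein without a kinase domain, was 7.54 ± 0.10 and 7.51 ± 0.18 (SD, n = 4), a difference of -0.03 (SE 0.081). Of the FRS docking adaptors, Frs2 was looked for by symbol, but no probe carried that symbol alone, so it was not measured. Frs3 was dim and passed the detection limit on 2 arrays without and 4 with induction. It read 5.16, 5.38, 4.88 and 5.17 in uninduced and 5.50, 5.35, 5.37 and 5.12 in induced cells. Pairs 1 and 3 were higher by 0.34 and 0.49 and pairs 2 and 4 slightly lower, the groups overlapped, and the difference of 0.19 (SE 0.13, adjusted p = 0.753 by limma) was not called and was 0.087 without replicate 3.

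Of the membrane modulators, Flrt3 had an unadjusted p of 0.0404 and an adjusted p of 0.539 by limma. Flrt3 is a leucine-rich transmembrane protein that binds FGF receptors and promotes their signaling in Xenopus embryos. Its arrays read 7.63, 7.84, 7.39 and 7.82 in uninduced and 7.89, 7.97, 7.60 and 7.91 in induced cells. All 4 pairs were higher, by 0.26, 0.13, 0.21 and 0.09, and the pair means ranged from 7.49 to 7.90. The difference was 0.17 (SE 0.077), or 1.13-fold, and it lay between 0.14 and 0.20 under every alternative tried (adjusted p 0.479 to 1 by limma). Flrt2, a relative of Flrt3, differed by 0.0011 (SE 0.07). Il17rd, also called Sef, an inhibitor of FGF signaling at the membrane, had pair differences of -0.25, 0.25, -0.06 and -0.11 at its brighter probe. Its other probe gave -0.33, 0.34, -0.03 and 0.03, so both probes put pair 1 lower and pair 2 higher, with means of -0.04 and 0.0026.

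Of the proteoglycans, Sdc3 had the smallest unadjusted p of the 21 genes, 0.00957, and an adjusted p of 0.363 by limma. Sdc3 is a syndecan best known from the nervous system and from limb cartilage. It read 10.90, 10.79, 10.77 and 10.63 in uninduced and 10.64, 10.72, 10.63 and 10.50 in induced cells. Every induced array was below its partner, by 0.27, 0.08, 0.14 and 0.13, and the groups overlapped. The means were 10.77 ± 0.11 and 10.62 ± 0.09 (SD, n = 4), with a difference of -0.15 (SE 0.052), or 1.11-fold lower, which lay between -0.18 and -0.11 under every alternative (adjusted p 0.305 to 1 by limma). Gpc3, a glypican whose loss in humans causes an overgrowth syndrome, differed by -0.15 (SE 0.059, unadjusted p = 0.0242, adjusted p = 0.496 by limma). Its arrays read 12.23, 12.05, 11.86 and 12.07 in uninduced and 11.94, 11.78, 11.78 and 12.13 in induced cells. Pairs 1 and 2 were lower by 0.29 and 0.28 and pair 4 was higher, and slide 3 alone gave -0.0094.

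At their brightest probe, the other measured proteoglycans had unadjusted p-values above 0.05 by limma. Gpc1, Gpc2, Gpc4 and Gpc6 differed by 0.00066, -0.06, 0.05 and -0.04. In Gpc4 pairs 1 to 3 were higher by 0.22, 0.14 and 0.23 and pair 4 was lower, at -0.38. Gpc6 had 2 further probes, which gave -0.16 and 0.12 (adjusted p over all probes 0.755 and 0.864 by limma). The 0.12 was 0.031 without replicate 1, 0.21 without replicate 3 and -0.064 on slide 3 alone. Sdc1, Sdc2 and Sdc4 differed by 0.07, 0.02 and 0.02. A dimmer Sdc1 probe, detected on 7 arrays, gave 0.37 (higher in 3 of 4 pairs, unadjusted p = 0.0142, adjusted p over all probes = 0.544 by limma). Pair 2 gave 0.82, with its uninduced array not above background, and the difference was 0.23 without replicate 2 and 0.17 on slide 3 alone. Whether the 2 Sdc1 probes differed was not tested. Of the 27 kept probes of the family, 0 were called over all 16514 kept probes, where 0.327% of them were.

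In all 21 genes the range of the 4 pair means was larger than the difference between groups. This held for 97% of all genes tested. A range and a difference of means are unlike measures, so the comparison does not rank replicate against induction. The median range was 0.32 and the median absolute difference 0.04 (log2), against 0.35 and 0.06 over all genes. Fgf21 had the widest range, 1.24, with a pair mean of 6.17 for replicate 1 and 4.93 for replicate 4. Il17rd followed with 0.65, from 7.47 for replicate 1 to 6.82 for replicate 3. Gpc4 and Gpc6 had ranges of 0.58 and 0.57. Both replicates of slide 3 lay below those of slides 1 and 2 in 8 genes (Fgf13, Frs3, Gpc1, Gpc2, Gpc4, Il17rd, Sdc2 and Sdc3) and above them in 6 (Fgf2, Fgf10, Fgfr2, Flrt2, Sdc1 and Sdc4). Over all genes these shares were 34.4% and 23.7%. Each slide held equal numbers of both groups, and slide and replicate cannot be told apart for slides 1 and 2.

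**Figure D4:**
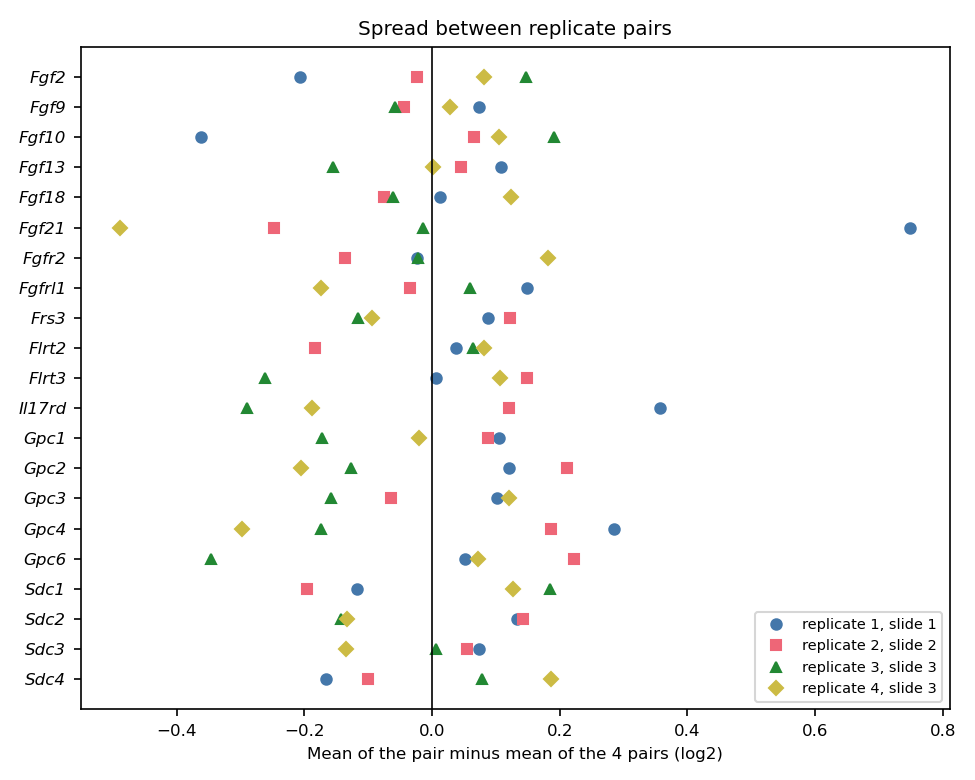
Mean of each replicate pair minus the mean of the 4 pairs (log2) for the 21 measured genes, with symbols for the replicate and its slide. Fgf21 has the widest spread, and replicates 3 and 4 of slide 3 lie below both other replicates in 8 genes and above both in 6.

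Other genes of the FGF pathway were set beside the family. Of the relay from receptor to ERK (adaptors, Ras proteins and kinases), 18 of 24 listed genes had a probe and 12 were measured. Of the measured genes 9 were higher and 3 lower, with 0 called, 0 at an unadjusted p under 0.05 and a median of 0.03. Of the enzymes that make and trim heparan sulfate, 25 of 28 had a probe and 17 were measured. In this list 7 were higher and 10 lower, with 0 called, 2 lower at an unadjusted p under 0.05 (5.12% of all genes) and a median of -0.01. These 2 were Extl3, a glycosyltransferase of chain initiation (-0.16, adjusted p = 0.326 by limma), and Ndst2, a sulfotransferase (-0.16, adjusted p = 0.531 by limma). Of the partners of FGF in palate growth, 19 of 20 had a probe and 14 were measured. Here 10 were higher and 4 lower, with 0 called, 2 higher before adjustment at p under 0.05 (3.61% of all genes) and a median of 0.07. These 2 were the palate transcription factors Osr2 (0.25, adjusted p = 0.0885 by limma) and Shox2 (0.14, adjusted p = 0.496 by limma), each higher in 4 of 4 pairs.

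The list of target genes and feedback inhibitors of FGF signaling, in contrast, held called genes. Its genes are not specific to FGF receptors, and which receptor input they followed was not tested. Of 20 listed, 19 had a probe and 15 were measured, 14 lower and 1 higher, with a median of -0.40. With the pairing 8 were called lower, where 0.5% of all genes were, and 0 higher. The 8 were Spry4, Errfi1, Dusp6, Myc, Dusp5, Egr1, Phlda1 and Dusp4. With the slide as a block 5 were called, and without a block 2 (Spry4 and Dusp6). Spry4, a Sprouty inhibitor of the Ras pathway, fell by 0.83, 0.92, 1.01 and 1.08 in pairs 1 to 4, and Dusp6, a phosphatase of ERK, by 0.73, 0.89, 0.66 and 0.75. Etv4 and Etv5, transcription factors that commonly follow FGF receptor activity, differed by -0.15 and -0.12 (adjusted p = 0.57 and 0.784 by limma) and were not called. The list was drawn up with earlier results of these data known, so its count is a description. Whether the list differs from the ligands and receptors was not tested.

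**Figure D5:**
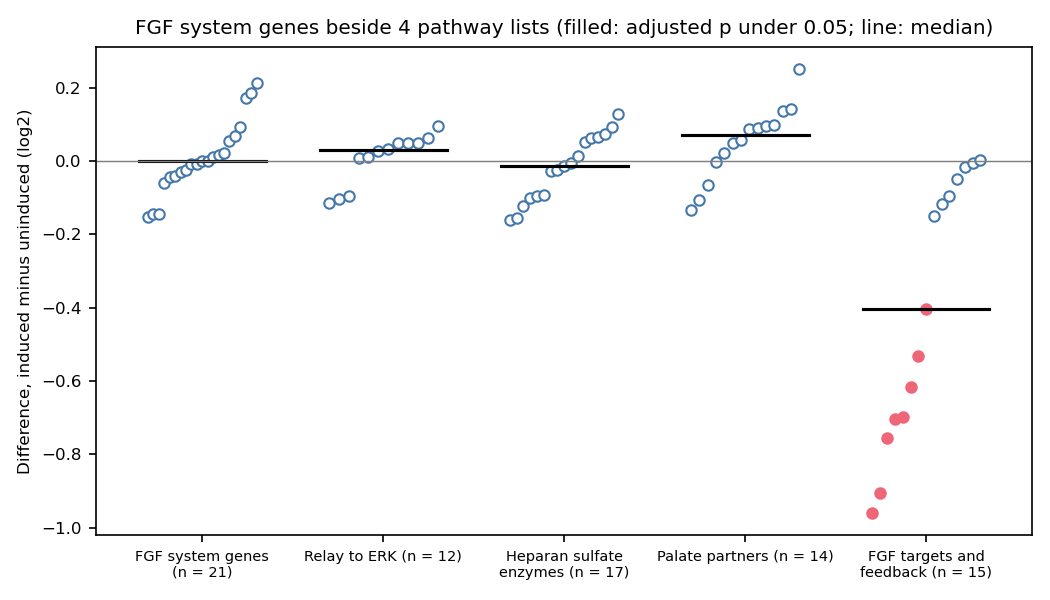
Log2 difference, induced minus uninduced, for the 21 measured FGF system genes and 4 pathway lists, each gene a circle, filled where its adjusted p was under 0.05 in the paired limma fit, with a line at the median. All 8 filled circles are in the list of targets and feedback inhibitors, between -0.40 and -0.96.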

How the data were processed

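Total RNA was hybridized to 8 single-channel Illumina arrays, 4 per group. The deposited table, exported with GenomeStudio 1.6.0 per the submitters' processing notes, gives per the file headers an average bead intensity on a linear scale, without normalization between arrays, and a detection p-value for each probe. The authors' processed matrix holds background-subtracted intensity with a median of 4.4 on each array, normalized in a way not given in the sources used here. It served as an alternative and correlated with its own array at a Spearman rho that rounded to 1.

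Repeated probe lines (11) were averaged. Probe symbols came from the platform annotation, where 29976 probes have 1 gene, 10 several and 16646 none. The neqc function corrected background and applied quantile normalization (limma 3.58.1, R 4.3.3, offset 16). A probe was kept when its detection p was under 0.05 on 4 or more arrays (16514 probes), and the brightest such probe stood for each of 9396 genes. Groups were compared with lmFit and eBayes with a variance trend, and p-values were adjusted by Benjamini-Hochberg. The fit was tested on simulated data.

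The replicate number was a block in the fit because the comparison was set as paired. Deviations of same-numbered arrays from their group means correlated across genes at 0.625, 0.591, 0.716 and 0.62, and other combinations at -0.538 to 0.3. Alternatives were the fit without a block, the slide as a block, no variance trend, median scaling, no background correction, the processed matrix, other detection limits, the mean of kept probes, slide 3 alone and leaving out each pair. Precision is limited by having 4 arrays per group.

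The members, the lists and the rule for named genes were chosen with earlier results of these data known. By that rule every member could be named by role. Full values went to members called in the paired or unpaired fit, with an unadjusted p under 0.05, seen on at least 3 arrays of 1 group and at most 1 of the other, with several kept probes, or among the 3 smallest p of a role. Of each pathway list the called members and up to 4 with the smallest p were named. Fgf10, Fgf7, Fgfr1, Etv4 and Etv5 received values outside that rule, chosen after these were seen. Protein sequences were not used here.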

Additional observations from a re-analysis of the deposited data

Results flagged for a closer look

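Of the 27 kept probes in 2 groups each, 1 group held an array far from the other 3. Flrt2 on uninduced replicate 2 read 8.32 on the normalized log2 scale, where the next of its group read 8.65 and the highest 8.70, so that its gap was 0.869 of the range. Chance flags about 1 in 20 groups, and 54 groups were looked at.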

How the results depend on the processing

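Over 15 alternatives no member crossed the threshold: limma called 0 of the measured members at an adjusted p under 0.05 in each, with member adjusted p from 0.224 to 1. Of 308 differences recomputed for the 21 genes, 283 kept their sign and 25 reversed, with sizes up to 0.12, and the signs of Fgf2, Fgfrl1, Flrt3, Frs3, Gpc3, Gpc6, Sdc1 and Sdc3 held in all. Members with an unadjusted p under 0.05 numbered 3 in the paired fit. They numbered 0 with no replicate block, 1 with the slide block, 0 with median scaling and 0 on slide 3 alone. Leaving out 1 replicate pair gave 0 to 4, with 0 without replicate 1. With no detection filter (46 members) there were 7, among them Fgf3, Fgf5, Fgf12 and Fgfr1, which were not measured. Shares of all genes at this p were taken only for the paired, unpaired and slide-block fits. Measured members numbered 17 at a detection p under 0.01 and 18 when all 8 arrays were required.

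Over the whole table the paired fit called 7 genes higher and 47 lower. The counts were 1 and 2 with no replicate block, 2 and 13 with the slide block, 1 and 12 with no variance trend, 4 and 37 with the mean of kept probes, and 5 to 7 and 30 to 39 when 1 replicate pair was left out (30 lower without replicate 1 and without replicate 4). The pairing changed no call of a member.

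Reversed differences on slide 3 alone were 0.12 for Fgf10, -0.00056 for Fgf21, -0.044 for Flrt2, -0.072 for Gpc4, -0.036 for Sdc2, -0.0091 for Sdc4 and -0.064 for the dimmest Gpc6 probe. Median scaling gave 0.0095 for Fgf10, and the mean of kept probes -0.057 for Fgfr2. Leaving out 1 pair moved Fgf10 between -0.061 and 0.053, Fgf13 between -0.0092 and 0.029, Fgf18 between -0.057 and 0.064, Fgf9 between -0.10 and 0.055, Flrt2 between -0.054 and 0.039, Gpc1 between -0.048 and 0.078, Gpc2 between -0.17 and 0.051, Gpc4 between -0.0062 and 0.20, Il17rd between -0.14 and 0.026, Sdc2 between -0.0027 and 0.049 and Sdc4 between -0.043 and 0.058. It moved the Fgfr2 probe at -0.02 between -0.17 and 0.051 and the dimmer Il17rd probe between -0.11 and 0.11. The causes were not tested. Signals of Fgf9, Fgf18, Fgf21, Frs3 and Fgfr1 lay near background, which limits what their differences show.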
